A study of Homo sapiens with 2 samples.

Results

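The 8 genes described here are 7 neuropeptide precursors (NPY, VIP, CARTPT, CRH, NMB, GAL and ADCYAP1) and CRHBP, which encodes the protein that binds corticotropin-releasing hormone outside the cell. They were taken by gene symbol from the 36027 genes of the table, and all 8 had a single row. They were chosen by their summed levels and their spread over cells in these same libraries, so those values are a description and were not tested. The measurements are droplet single-cell RNA counts (10x Genomics, 3' chemistry) of SK-N-BE(2)-C cells, a widely used human neuroblastoma cell line, into which a construct had been placed that makes HRASV12, a constantly active form of the GTPase HRAS, when doxycycline is given. The HRASV12 induced library was made after 13 days with 100 ng/ml doxycycline. The uninduced control library was made from cells of that line without doxycycline, also at 13 days. The control cells carried the construct too. No doxycycline-treated cells without that construct were analysed here, so effects of the drug and of HRASV12 cannot be told apart. The sources used here do not say whether the line was 1 clone.

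Neuropeptides are cut from larger precursor proteins in the secretory pathway, stored in dense-core granules and released to act on G protein-coupled receptors of nearby cells. Sympathetic neurons and chromaffin cells, the lineage from which neuroblastoma arises, are known for releasing NPY, VIP, galanin and PACAP beside catecholamines. NPY is the main peptide of sympathetic nerves, VIP and PACAP (the product of ADCYAP1) are related peptides that raise cAMP in target cells, and galanin acts mostly through inhibitory receptors. CRH drives the pituitary stress axis, CARTPT encodes the CART peptides of appetite and reward circuits, and NMB encodes neuromedin B, a bombesin-like peptide.

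The promoters of CARTPT, VIP and NPY are shown because these genes had the largest differences between the libraries among the precursors, with CARTPT lower and VIP and NPY higher in induced cells. Several neuropeptide genes, VIP among them, are known to respond to cAMP through the cAMP response element, and matches to it are in capitals. The sequences are from RefSeq (GRCh38.p14), 5' to 3' on the coding strand, from 250 bases before to 50 after the start of the gene, and lie at chr5:71719025-71719324 (CARTPT), chr6:152750547-152750846 (VIP) and chr7:24283940-24284239 (NPY), all on the plus strand.
CARTPT: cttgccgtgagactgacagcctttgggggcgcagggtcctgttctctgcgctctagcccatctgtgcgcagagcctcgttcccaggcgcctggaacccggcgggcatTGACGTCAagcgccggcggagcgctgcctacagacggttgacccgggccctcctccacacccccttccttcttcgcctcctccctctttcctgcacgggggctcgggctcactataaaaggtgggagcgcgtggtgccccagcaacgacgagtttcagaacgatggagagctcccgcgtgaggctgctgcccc
VIP: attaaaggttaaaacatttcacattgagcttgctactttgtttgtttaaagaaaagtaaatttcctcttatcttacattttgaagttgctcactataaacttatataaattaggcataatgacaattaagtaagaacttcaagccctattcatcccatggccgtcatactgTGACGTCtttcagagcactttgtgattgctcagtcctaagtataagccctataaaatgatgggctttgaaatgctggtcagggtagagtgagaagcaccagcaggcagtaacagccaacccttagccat
NPY: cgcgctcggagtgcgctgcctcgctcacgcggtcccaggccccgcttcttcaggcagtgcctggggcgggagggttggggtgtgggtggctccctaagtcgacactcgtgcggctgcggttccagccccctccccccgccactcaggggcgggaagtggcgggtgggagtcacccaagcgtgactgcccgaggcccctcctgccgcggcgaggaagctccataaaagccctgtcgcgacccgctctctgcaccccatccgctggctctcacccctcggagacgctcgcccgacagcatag
The full element TGACGTCA stood in the CARTPT promoter at position -143 from the gene start, and was in 1.85% of 35116 RefSeq promoters of the same length, on either strand. The VIP promoter held TGACGTC, which lacks the last base, at position -79, and the letters TGACG on the opposite strand at -89. Those 7 letters, which are also part of the full element, were in 3.45% of promoters, and TGACG, part of both, in 24.6%. None of these motifs, nor the AP-1 letters TGANTCA (7.71% of promoters), was found in the NPY window. RefSeq promoters were read for 6 of the 8 genes. So the promoter of the gene that was lower in induced cells and that of a gene that was higher both held letters of the element, and a match is not a shown site of binding.

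The induced library held 666 cells and 80359736 counts (median 111582 per cell), and the control library 956 cells and 95350640 counts (median 85821 per cell). No cell barcode was shared between them. With 1 library per group no difference has a replicate check, no test was run, and every interval below is a 95% interval for counting error only. HRAS itself stood at 161 CPM (the count scaled to one common total for each library) in induced and 109 CPM in control cells. Of 9 adrenergic neuroblastoma markers, 7 had at least 10 CPM in a library, among them PHOX2A, HAND2, GATA3 and DBH. Summed, the 9 markers stood at 3191 CPM in induced and 3324 CPM in control cells, although TH, which starts the making of catecholamines, was near 0, at 1.14 and 3.62 CPM. In addition, more induced than control cells were scored as G1 (62.3% against 20.6%), and the levels by phase are given further on.

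Summed over all cells, NPY, VIP and CRHBP were at least 2-fold higher in induced than in control cells, CARTPT was at least 2-fold lower, and CRH, NMB, GAL and ADCYAP1 were within 2-fold. All 8 genes reached 1 CPM in a library. Over the 17364 genes that did so, 5.63% passed 2-fold upward and 2.68% downward, and nothing is read from the 3 and 1 of 8 because the genes were chosen with this contrast known. The higher calls made up 67.7% of all calls, 79.9% with TMM scaling, 84.0% with DESeq2 scaling and 52.6% when ribosomal protein and mitochondrially encoded genes were left out of the totals. Together the 8 genes took up 2593 CPM in induced and 1102 CPM in control cells. In libraries of pooled cells, fewer cells with a transcript and less of it per cell cannot be told apart, so counts per cell are given beside each level.

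**Figure D1:**
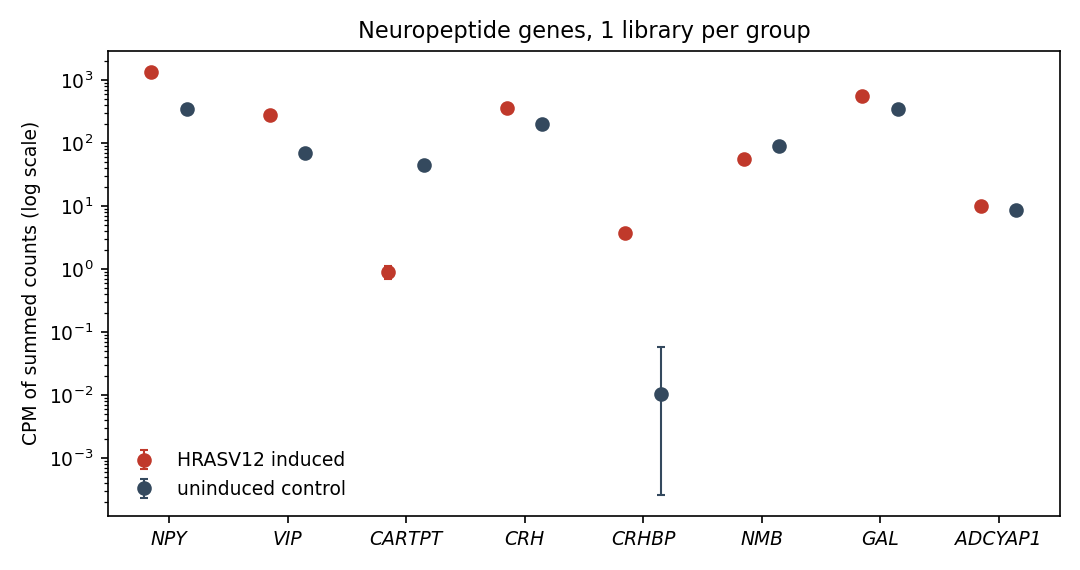
CPM of the 8 neuropeptide genes in the HRASV12 induced (red, left) and uninduced control (dark, right) library, on a log scale. Points are counts summed over all cells of the 1 library per group and bars are exact 95% Poisson intervals. NPY, VIP and CRHBP sit higher in the induced library and CARTPT lower.

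NPY was the most abundant of the 8 genes in induced cells. It stood at 1339 CPM in the induced library (interval 1331 to 1347, from 107591 counts) and at 344 CPM in the control library (340 to 348, from 32792 counts), a ratio of 3.89 (3.85 to 3.94). For values per cell, every cell was thinned at random to 53000 counts, which kept 562 induced and 766 control cells. A median of 52 NPY counts was then found per induced cell, with quartiles of 16 and 94.8, against a median of 10 with quartiles of 4 and 24 per control cell. The 2 ranges overlapped, but the lower induced quartile lay above the control median. A cell with at least 3 thinned counts is called a carrier here: 92.9% of induced cells (90.4% to 94.9%) and 82.1% of control cells (79.2% to 84.8%) carried NPY, and unthinned the shares were 92.8% and 84.6%. NPY was thus found in most cells of both libraries, and the libraries differed mainly in the amount per cell.

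VIP differed by a similar ratio, and its counts lay in fewer cells than those of NPY. It stood at 274 CPM in induced cells (271 to 278) and 69.4 CPM in control cells (67.7 to 71.1), a ratio of 3.95 (3.85 to 4.06). Carriers made up 39.7% of induced cells (35.6% to 43.9%) and 28.7% of control cells (25.5% to 32.1%), and 46.8% and 35.1% without thinning. The median was 1 count per induced cell and 0 per control cell, while the highest cell held 633 and 104 thinned counts. In the induced library 20 cells held at least 50% of the VIP counts, and in the control library 44 cells did. Without the 5% of cells of each library richest in VIP, the level was 108 CPM in induced and 35.1 CPM in control cells, a ratio of 3.06 (2.94 to 3.19), so the difference did not rest on those cells alone. Carriers averaged 669 CPM among 223 induced and 250 CPM among 220 control cells, so VIP was higher in carriers as well as carried by more cells.

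CRH was the one gene within 2-fold whose share of carriers was over 2 times as high in induced cells. The sums stood at 358 CPM in induced cells (354 to 363) and 200 CPM in control cells (197 to 203), a ratio of 1.79 (1.76 to 1.82). Carriers, however, made up 60.7% of induced cells (56.5% to 64.7%) and 23.8% of control cells (20.8% to 26.9%), and 59.6% and 27.9% without thinning. The 5% of cells richest in CRH held 42.7% of its induced counts and 78.2% of its control counts. In control cells, 14 of 956 held at least 50% of the counts, between 276 and 1966 counts each, and the fullest alone held 10.3%. In induced cells the same share took 47 of 666 cells. Leaving out the 5% of cells richest in CRH from each library left 220 CPM in induced and 46.0 CPM in control cells, a ratio of 4.79 (4.63 to 4.96), a setting chosen after seeing the data. The ratio also passed 2-fold with DESeq2 scaling (2.00), without the 20% of cells with the fewest counts (2.09) and with a limit on mitochondrial percent and MALAT1 (2.22), and was 1.03 among G1 cells.

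**Figure D2:**
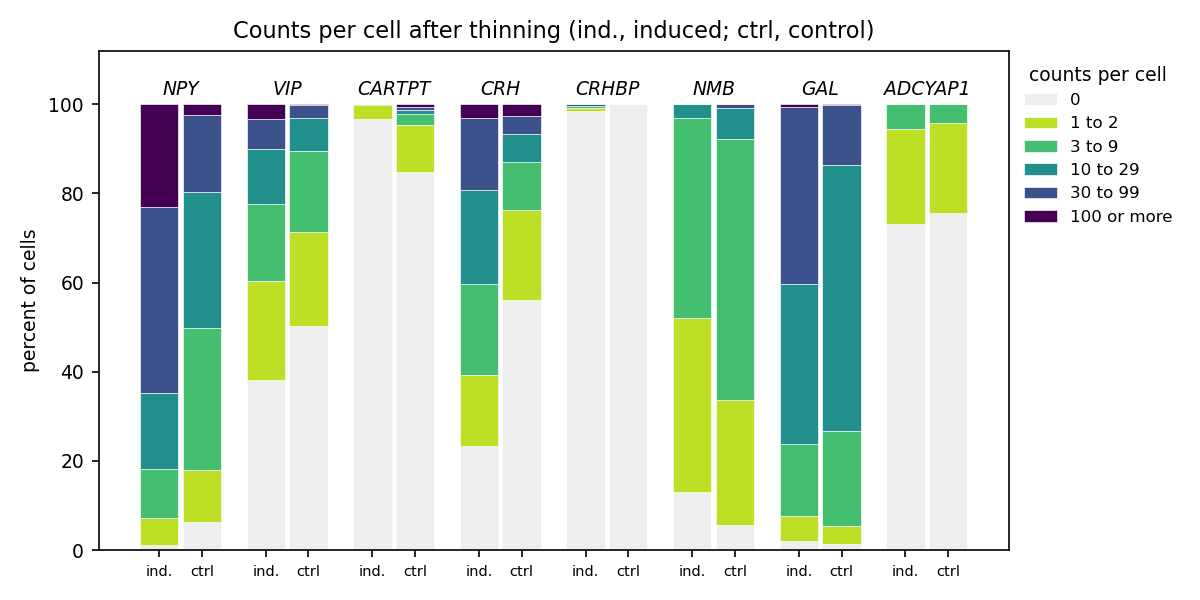
Share of cells (percent) by counts per cell of each gene after thinning every cell to 53000 counts, in 562 induced (left bar of each pair) and 766 control cells (right bar). Darker colours are more counts: NPY shifts to darker classes in induced cells, CRH has a smaller class at 0 in induced than in control cells, and CARTPT and CRHBP are at 0 in most cells of both.

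CARTPT was nearly confined to a few control cells. The induced library held 72 counts, or 0.896 CPM (0.701 to 1.13), and the control library 4346 counts, or 45.6 CPM (44.2 to 47.0), a ratio of 0.0197 (0.0154 to 0.0248). After thinning, 1 of 562 induced cells (0.178%) and 35 of 766 control cells (4.57%, 3.20% to 6.30%) were carriers, and unthinned 5 induced and 56 control cells. No induced cell held more than 7 counts. In the control library 1 cell held 1729 counts, 39.8% of the library's total, and 3 cells held at least 50%, the others with 400 and 383 counts. Without the 5% of cells richest in it, the level was 0.221 CPM in induced and 2.27 CPM in control cells, a ratio of 0.0973 (0.0546 to 0.162). The direction was thus the same, on 16 induced and 205 control counts. How many of these counts were RNA set free by the richest cells was not measured.

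CRHBP had the highest ratio and the fewest cells. It had 304 counts (3.78 CPM, 3.37 to 4.23) in induced and 1 count (0.0105 CPM) in control cells, a ratio of 361 with an interval of 64.3 to 14294. Only 7 induced cells held at least 3 counts, and 2 of these, with 149 and 114 counts, held at least 50% of them. Of the 7 cells, 6 had between 1 and 3 NPY counts, no CRH count and at most 2 counts of PHOX2A, and each had counts of the endothelial markers CDH5 (endothelial cadherin) and ESAM. The other cell had 342 NPY, 19 CRH and 36 PHOX2A counts beside 16 CDH5 counts. CRHBP was thus mostly not found in the cells that held CRH, the peptide it binds. The endothelial markers were uneven over the 7 cells. CDH5 ranged from 2 to 33 counts and ESAM from 8 to 55. KDR (0 to 30 counts) and PECAM1 (0 to 12) were not found in every cell. Induced cells with CDH5 gave the nearest to a set that lacks sympathetic peptides, although it was chosen after its values were seen. In the induced library NPY was carried by 1 of 9 cells with at least 3 CDH5 counts (11.1%) and by 94.2% of the other cells, with median depths of 97024 and 125283 counts before thinning. For GAL the shares were 44.4% and 93.1%, for CRH 11.1% and 61.5%, for VIP 0% and 40.3%, and for NMB 88.9% and 47.4%. The 9 such control cells all carried NPY, 77.8% carried GAL and 66.7% had at least 3 PHOX2A counts, so they did not lack sympathetic peptides.

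**Figure D3:**
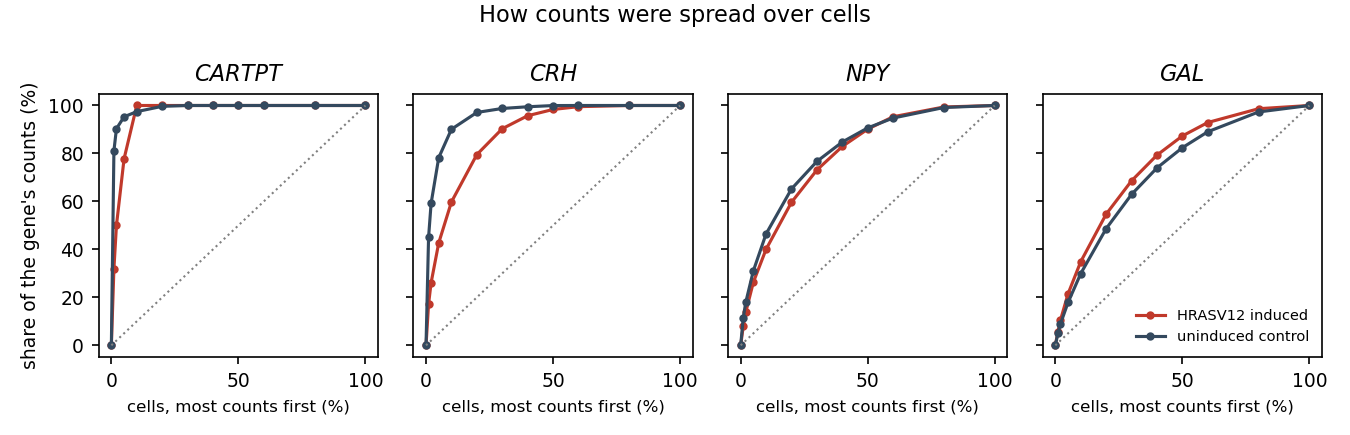
Cumulative share of a gene's counts (percent, vertical) held by the cells richest in it (percent of cells, horizontal) in the induced (red) and control (dark) library, unthinned. The dotted line is an even spread. Control CRH rises to 78.2% at 5% of cells, against 42.7% in induced cells, while NPY and GAL are spread widely in both.

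GAL was carried by nearly every cell of both libraries. It stood at 551 CPM in induced cells (546 to 556) and 343 CPM in control cells (339 to 347), a ratio of 1.61 (1.58 to 1.63). Carriers made up 92.3% of induced and 94.5% of control cells, with medians of 24 and 16 counts per cell. Its upper quartile was 40 counts in induced and 24 in control cells, while its lower quartile was alike, at 10 and 9, so the difference lay in the upper part of the range.

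NMB was the only broadly carried gene of the 8 with a lower level in induced cells. The level was 55.9 CPM in induced cells (54.3 to 57.6) and 91.5 CPM in control cells (89.6 to 93.4), a ratio of 0.611 (0.589 to 0.634), short of 2-fold. Carriers made up 48.0% of induced and 66.3% of control cells, and 67.1% and 81.8% unthinned. Few cells held much of it: the highest thinned count was 17 in induced and 66 in control cells.

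ADCYAP1, the PACAP precursor, was low in both libraries, at 10.0 CPM in induced cells (9.34 to 10.7) and 8.64 CPM in control cells (8.06 to 9.25), a ratio of 1.16 (1.05 to 1.28). Carriers made up 5.52% of induced and 4.31% of control cells. In the GENCODE 29 annotation the gene overlaps 2 genes on the other strand, and the sources used here do not say how strand was used in counting, so its counts are uncertain. Counts from 3' ends take each molecule once whatever its length, so levels may be set beside each other. The order of levels was NPY, GAL, CRH, VIP, NMB, ADCYAP1, CRHBP and CARTPT in induced cells. In control cells it was NPY, GAL, CRH, NMB, VIP, CARTPT, ADCYAP1 and CRHBP, where NPY (340 to 348 CPM) and GAL (339 to 347 CPM) did not differ beyond counting error.

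Most cells had at least 3 counts of several of the genes. The share that free RNA gives was not measured. For GAL 44.4% of the 9 induced CDH5 cells above passed, but so did 77.8% of the 9 control CDH5 cells. These cells were not shown to lack GAL, so neither share is a value for free RNA. For NMB 88.9% of the induced CDH5 cells passed, but their NMB level (86.0 CPM) was above that of the other induced cells (56.5 CPM). They therefore give no such value for NMB either. At least 2 were carried by 95.9% of induced cells (93.9% to 97.4%) and 91.8% of control cells (89.6% to 93.6%), or 94.6% and 94.8% unthinned. At least 4 were carried by 48.2% of induced cells (44.0% to 52.4%) and 29.6% of control cells (26.4% to 33.0%), on average 3.40 and 3.04 genes per cell. Among G1 cells the share with at least 4 was 50.3% in induced and 42.4% in control cells, a smaller gap. No cell carried 7 or 8, which allows a share of up to 0.654% of induced and 0.480% of control cells by the exact interval. The most common combination in induced cells was NPY, CRH and GAL (82 cells, 14.6%), followed by NPY, VIP, CRH, NMB and GAL (79 cells, 14.1%). In control cells it was NPY, NMB and GAL (215 cells, 28.1%), followed by NPY and GAL (99 cells, 12.9%). The gene with the most counts in a cell was NPY in 57.3% of induced cells (53.1% to 61.4%) and 30.8% of control cells (27.6% to 34.2%). GAL led in 27.2% of induced cells (23.6% to 31.1%) and 55.7% of control cells (52.1% to 59.3%). CRH led in 7.83% of induced and 5.74% of control cells, and CARTPT in 0 induced and 8 control cells. The leading peptide transcript of a cell was therefore most often NPY in the induced and GAL in the control library.

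**Figure D4:**
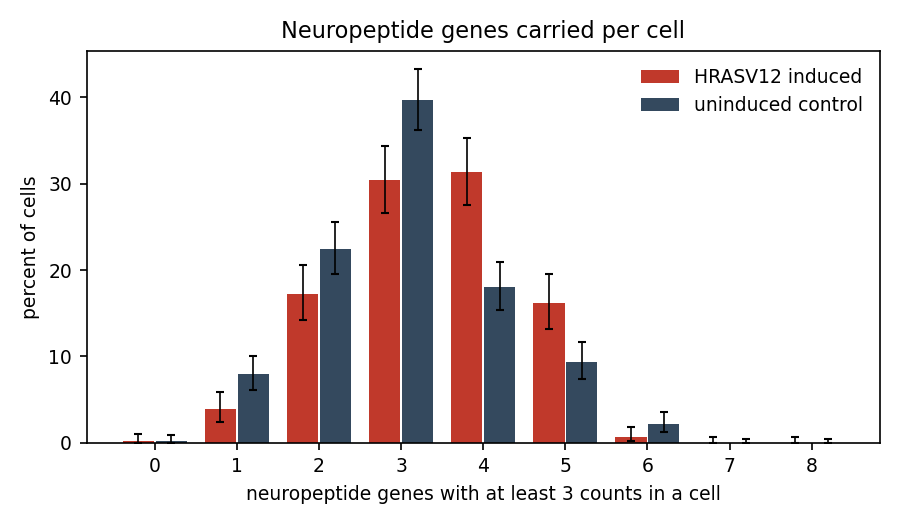
Percent of cells by the number of the 8 neuropeptide genes they carried (at least 3 counts after thinning), in 562 induced (red, left) and 766 control cells (dark, right). Bars carry exact 95% binomial intervals: induced cells are most often at 4 genes (31.3%) and control cells at 3 (39.7%).

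NPY, VIP and CRH tended to be carried by the same cells. Among induced NPY carriers 64.8% carried CRH, against 7.50% of the 40 NPY non-carriers, and 42.1% carried VIP, against 7.50%. Among control NPY carriers 26.6% carried CRH, against 10.9% of the 137 NPY non-carriers, and 32.1% carried VIP, against 13.1%. VIP was carried by 49.0% of induced CRH carriers and 25.3% of the other induced cells, and by 49.5% of control CRH carriers and 22.3% of the other control cells. NPY non-carriers were shallower before thinning (median 91869 against 126730 counts in induced and 97343 against 109704 in control cells), and the part of depth in these shares was not tested. Across cells, Pearson's r of log2(thinned count + 1) for NPY and CRH was 0.36 in both libraries (562 induced and 766 control cells), each pair of values from the same cells and libraries. By the same measure GAL had negative values with VIP (r of -0.24 in induced and -0.07 in control cells) and with NPY (-0.15 and -0.10), although these values are small. By shares, GAL was carried by 92.7% of induced NPY carriers, against 87.5% of the induced NPY non-carriers, the opposite direction. Of 20 such pairs among NPY, VIP, CRH, NMB and GAL in the 2 libraries, 14 kept their sign in the share among carriers minus that among non-carriers under each alternative run for them.

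The 35 control CARTPT carriers more often carried CRH, VIP, NMB and NPY, but not GAL or ADCYAP1. CRH was carried by 74.3% of them and 21.3% of the other control cells, VIP by 74.3% and 26.5%, NMB by 100% and 64.7%, and NPY by 94.3% and 81.5%. GAL was carried by 82.9% and 95.1%, and ADCYAP1 by 0% and 4.51%. Their CRH level was 2500 CPM, against 115 CPM in the other control cells. Of the 3 cells holding at least 50% of the control CARTPT counts, 2 were also among the 14 holding at least 50% of the CRH counts. The cell with 1729 CARTPT counts held 959 CRH, 34 NMB and 17 NPY counts.

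The cell cycle moved with these levels. Within each library G1 cells were higher than cells scored S or G2M in NPY (1615 against 897 CPM in induced and 555 against 332 CPM in control cells) and in VIP (309 against 207 CPM and 114 against 67.3 CPM). CRH was 437 against 301 CPM in induced cells and 424 against 172 CPM in control cells. GAL was lower in G1 cells in both, at 431 against 703 CPM in induced and 278 against 354 CPM in control cells. Among G1 cells alone, 350 induced and 158 control, the ratio of induced over control was 2.91 for NPY (2.82 to 3.00), 2.72 for VIP (2.54 to 2.91), 0.525 for NMB (0.482 to 0.573) and 1.55 for GAL (1.48 to 1.63). For CRH it was 1.03 (0.989 to 1.07), against 2.11 in S (1.96 to 2.27) and 1.58 in G2M. Yet CRH carriers made up 62.9% of induced and 40.5% of control G1 cells, so a similar summed level was again spread over more induced cells. ADCYAP1 changed side, at 0.754 (0.591 to 0.965) in G1, 1.52 in S and 1.58 in G2M. NPY was higher in induced cells in every phase, at 2.56 in S and 2.84 in G2M, while VIP was 1.40 in S and 3.62 in G2M. GAL was 2.04 in S (1.94 to 2.14) and 1.99 in G2M (1.92 to 2.07), both above its G1 value. NMB was 0.575 in S and 0.653 in G2M.

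Vimentin (VIM), an intermediate filament of mesenchymal cells, stood at 1510 CPM in induced and 182 CPM in control cells and separated the peptides within each library. Cells of each library were split into tertiles by thinned VIM counts, with cuts at 34 and 81 counts in induced and at 0 and 4 counts in control cells, so the tertiles of the 2 libraries are not the same range of VIM. NPY stood at 521, 1298 and 2237 CPM in the low, middle and high induced tertile, and at 224, 283 and 649 CPM in the control tertiles. VIP stood at 103, 182 and 531 CPM in the induced and 42.6, 43.6 and 150 CPM in the control tertiles. The summed levels of both were thus highest in the high tertile of either library. VIP carriers made up 29.3%, 47.6% and 42.5% of the induced tertiles and 19.4%, 26.3% and 41.5% of the control tertiles. In induced cells the share of VIP carriers was therefore not highest in the high tertile. GAL ran against VIM in induced cells, at 803, 500 and 290 CPM, and less so in control cells, at 366, 331 and 316 CPM. CRH stood at 297, 346 and 515 CPM in the induced tertiles, but at 56.5, 75.7 and 568 CPM in the control tertiles, where 39.4% of the high tertile were carriers against 12.9% of the low tertile. CARTPT in control cells followed the same course, at 1.94, 10.3 and 205 CPM.

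**Figure D5:**
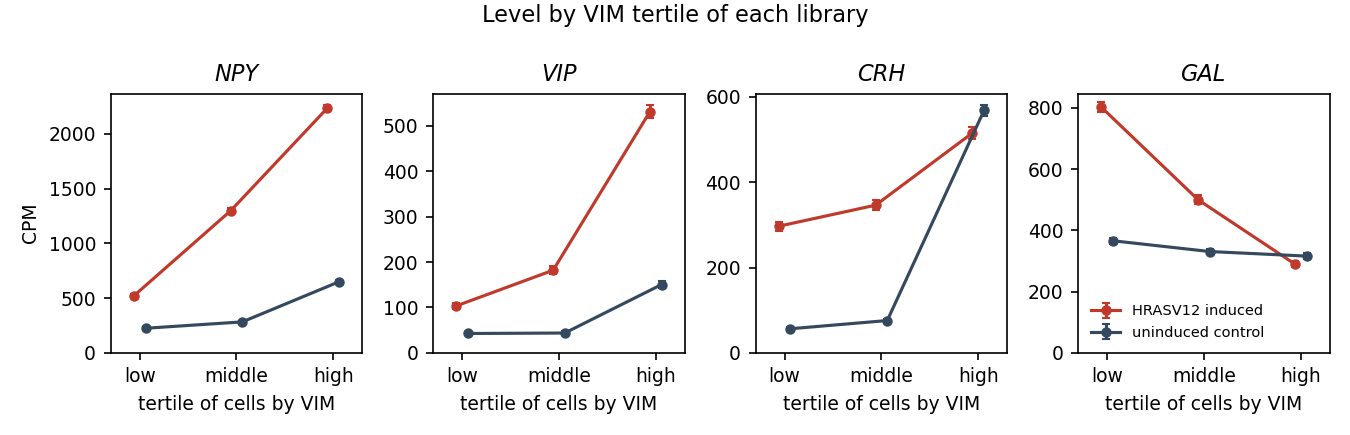
CPM of NPY, VIP, CRH and GAL (vertical axes from 0) in the low, middle and high tertile of cells by VIM counts within the induced (red) and control (dark) library, with exact 95% Poisson intervals. NPY reaches 2237 CPM in the high induced tertile while GAL declines to 290 CPM, and control CRH is high only in the high tertile.

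HRAS counts went with carrying of the peptides in part. NPY was carried by 76.6%, 94.6% and 96.8% of induced cells with 0 to 3, 4 to 9, and 10 or more thinned HRAS counts, and by 73.9%, 83.6% and 91.7% of control cells. CRH was carried by 37.7%, 61.7% and 68.4% of induced cells in these classes, against 24.5%, 22.9% and 27.4% of control cells. Counts do not separate HRASV12 from the cell's own HRAS.

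Clustering of all cells without the 8 genes gave 8 clusters, of which 3 were nearly all induced cells (467 induced and few control cells) and 4 held 167 induced and 850 control cells. With 1 library per group a cluster of 1 library may be that library. Induced cells in the 4 shared clusters had HRAS at 108 CPM, against 110 CPM in control cells of the same clusters and 174 CPM in the 3 induced clusters, a comparison chosen after seeing the data. In those shared clusters NPY stood at 332 CPM in induced and 286 CPM in control cells, a ratio of 1.16 (1.13 to 1.20), and VIP at 65.3 and 48.4 CPM, a ratio of 1.35 (1.26 to 1.44). GAL stood at 894 CPM in induced and 352 CPM in control cells, a ratio of 2.54 (2.49 to 2.59), and was above 2-fold in each of the 4 clusters. CRH stood at 270 and 97.9 CPM, a ratio of 2.75 (2.65 to 2.86), but in the smallest of the 4 it was lower in induced cells, at 43.6 CPM against 217 CPM. Among the 4, the ratio ranged between 0.653 and 1.96 for NPY and between 0.725 and 2.21 for VIP. The 3 induced clusters held NPY at 1616 CPM, VIP at 326 CPM, CRH at 396 CPM and GAL at 482 CPM. NPY and VIP thus stood closer between the libraries in the shared clusters than over all cells, and GAL stood further apart. VIM stood at 194 CPM in induced and 103 CPM in control cells of the shared clusters, against 1780 CPM in the 3 induced clusters. Genes that ran with NPY and VIP, VIM among them, were not left out of the clustering. These values therefore describe this grouping of cells and are no separate result.

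The eighth cluster (32 induced and 93 control cells) had the highest summed level of 6 endothelial markers, 544 CPM, and the next cluster had 81.5 CPM. It held 301 of the 304 induced CRHBP counts, 85.1% of the control CARTPT counts and 52.8% of the control CRH counts. Its control cells held CRH at 1243 CPM and CARTPT at 457 CPM, and its induced cells held 18.2 and 2.66 CPM. NPY and VIP were close, at 893 CPM in induced and 851 CPM in control cells for NPY and at 327 and 298 CPM for VIP. The marker sum was not split by gene within this cluster. The 3 control cells richest in CARTPT all lay in it, and each held 0 CDH5 counts, unlike the CRHBP cells above. They held 45, 7 and 16 EGFL7 counts and 4, 104 and 82 PHOX2A counts. Of the 9 control cells with at least 3 CDH5 counts, 3 carried CARTPT and 2 carried CRH. Without this cluster the ratio of induced over control was 3.58 for CRH, past 2-fold, and 0.113 for CARTPT, and CRHBP fell under 1 CPM in both libraries. Over the whole libraries the 6 endothelial markers summed to 72.9 CPM in induced and 104 CPM in control cells, and their part in the CRH, CARTPT and CRHBP results was not tested. The lower induced sum came from EGFL7 (53.4 CPM in induced and 96.4 CPM in control cells). The other 5 were higher in induced cells: ESAM at 10.7 and 3.22 CPM, PECAM1 at 3.97 and 3.07 CPM, CDH5 at 2.63 and 0.965 CPM, KDR at 1.92 and 0.157 CPM, and VWF, near 0, at 0.324 and 0.294 CPM.

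Genes whose counts were most like a peptide's across the cells of a library were sought among genes of at least 10 CPM. NPY was most like LGALS1 (r = 0.67), S100A10 (0.67), TMSB10 (0.65), S100A11 (0.62) and VIM (0.61) over 562 induced cells. Over 766 control cells it was most like S100A10 (0.48), S100A11 (0.45), TPM1 (0.45), ANXA2 (0.42) and GNG11 (0.41). Among the genes most like GAL were DOK4, SHD, FXYD6 and C1QL1 (0.54 to 0.58) in induced and ODC1, SMCO4, PDCD5 and FABP5 (0.36 to 0.40) in control cells. CRH was most like TP53I3 (0.48), TMEM108 (0.42), PTGER2 (0.42), ENO2 (0.40) and SFRP1 (0.40) in induced cells. In control cells it was most like S100A10 (0.52), S100A11 (0.47), TAGLN2 (0.44), GNAS (0.42) and NDUFA4L2 (0.40). PTGER2, the third in induced cells, was the sixth of 8541 genes in control cells (0.38). For VIP the highest values were PHLDA1 (0.33), IL13RA2, PLPP4, PRSS12 and TPM1 in induced and S100A10 (0.43), LGALS1, PHLDA1, ANXA2 and TAGLN2 in control cells. For NMB they were EGFL7 (0.31), ATP5F1E, FAM89A, TTYH3 and NRGN in induced and EGFL7 (0.45), S100A10, LUM, FAM89A and BNIP3 in control cells. Cells share library and depth, so these values describe the libraries.

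The receptors of these peptides were scarce. Of 14 receptor genes, 8 had a row and 3 reached 1 CPM: NPY2R, the presynaptic NPY receptor (9.54 CPM in induced and 7.43 CPM in control cells), GALR1, a galanin receptor (2.95 and 3.71 CPM), and ADCYAP1R1, the PACAP receptor (4.23 and 5.53 CPM). None was past 2-fold. The median log2 ratio of these 3 was -0.33, against -0.13 over all 17364 genes.

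Of 14 genes that process precursors, 11 reached 1 CPM, 4 were at least 2-fold higher in induced cells and 0 lower, beside 5.63% and 2.68% of all genes tested. SCG5 (7B2, the chaperone of the convertase PC2) stood at 84.6 CPM in induced and 20.2 CPM in control cells, a ratio of 4.18 (3.97 to 4.40). PCSK1N (proSAAS, an inhibitor of the convertase PC1/3) stood at 1172 and 402 CPM, a ratio of 2.91 (2.88 to 2.95), and was present in nearly every cell. QPCT, which closes the N-terminus of peptides to pyroglutamate, was low, at 1.47 and 0.535 CPM, as was PCSK1 (PC1/3 itself), at 1.97 and 0.944 CPM, and both reached 1 CPM through the induced library only. The lowest ratios were those of PCSK7 (0.695), a convertase of the constitutive pathway, CPD (0.789) and CPE (0.802), carboxypeptidases that trim the cut peptides. PAM, the amidating enzyme that gives NPY, VIP, CRH, neuromedin B and PACAP their C-terminus, was at 20.1 CPM in induced and 20.8 CPM in control cells. The list's median log2 ratio was 0.11, against -0.13 over all genes, and its ratios ranged from 0.695 to 4.18.

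Of 8 peptidases with a row, 5 reached 1 CPM and none was past 2-fold, with ratios from 0.838 for LNPEP to 1.01 for ECE1, and NLN at 0.927, THOP1 at 0.913 and PREP at 0.888 between them. Of 15 genes of the cAMP response and of REST repression, none was past 2-fold, and their median log2 ratio of -0.13 was that of all genes. The highest were CREM (1.72), a cAMP-responsive regulator, REST (1.53), the repressor of neuronal genes, and PRKACB (1.45), a catalytic subunit of protein kinase A. The lowest were RCOR1 (0.717) and RCOR2 (0.749), partners of REST, and EP300 (0.773), a co-activator of CREB.

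Of 51 other precursor genes of peptides and peptide hormones, 38 had a row and 16 reached 1 CPM. Of these, 7 were at least 2-fold higher in induced cells and 0 lower, beside 5.63% and 2.68% of all genes tested. The median log2 ratio was 0.92, against -0.13 over all genes. SST, the somatostatin precursor, had 857 counts (10.7 CPM) in 63 induced cells and 2 counts in 2 control cells, a ratio of 508 (140 to 4205). SST, GIP, NTS and GNRH1 reached 1 CPM through the induced library only, so they could not have been counted as lower, and CALCB through the control library only. The count and the median rest in part on these genes. SPX (spexin, related to galanin) stood at 7.38 CPM in induced and 1.37 CPM in control cells, and NPPB (B-type natriuretic peptide) at 4.26 and 1.03 CPM. At the other end TAC3, the neurokinin B precursor, stood at 9.49 CPM in induced and 18.8 CPM in control cells, a ratio of 0.504 (0.463 to 0.549), just short of 2-fold. PYY, a relative of NPY, stood at 2.96 and 5.39 CPM, and ADM (adrenomedullin) at 1.94 and 2.68 CPM. NPY and its relative PYY therefore differed in opposite directions.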

How the data were processed

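The data are 1 library of HRASV12 induced and 1 of uninduced control cells, each a group. Per the submitters' processing notes, the authors used kallisto and bustools. The sources used here give neither their versions nor the build and annotation. The authors deposited 1 table of counts (whole numbers, 36027 genes by 1622 cells). The deposited annotation gives each cell's type, the authors' percent of mitochondrial counts (at most 20.0) and a singlet mark for all 1622 cells, so no doublet caller was run; the sources used here do not say how doublets were found. Annotation and table were joined by their order, checked by sample suffix and by totals, which differed by at most 192 counts. Gene positions were looked up in GENCODE 29 (GRCh38), which may not be the authors' build.

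The 8 genes, all gene lists and the settings were chosen with earlier results of these data known. Counts were summed per library and scaled to CPM. Levels have exact Poisson, ratios exact conditional and shares Clopper-Pearson intervals (95%), which cover counting error only. A gene with at least 1 CPM in a library was called at a ratio of at least 2 or at most 0.5, without pseudocount. A library at 0 was set to 3 counts (0.0373 CPM in induced, 0.0315 CPM in control cells). Thinning to 53000 counts, the largest multiple of 1000 keeping 80% of cells of each library, left out 104 induced cells and 190 of the control. Cell cycle phases were scored from 42 S and 52 G2M genes with scanpy 1.11.5. Clusters (Leiden, igraph 0.11.9) used 2000 variable genes other than the 8, 30 components, 15 neighbours and a resolution of 0.5, and none was named. Named were all 8 genes, the 3 highest and 3 lowest measured genes of each list and, for each gene carried by at least 10% of a library's cells, the 5 genes most like it at r of at least 0.2; PCSK1, PAM, and the cell markers were named beside them. Some genes of these lists are not reported here. Likeness used log2(thinned count + 1). Alternatives were TMM (edgeR 4.0.16) and DESeq2 1.42.0 scaling, used for no test, totals without ribosomal protein and mitochondrially encoded genes, mean per-cell CPM, cell filters by depth, quality and phase, a pseudocount, other floors and other carrier cut-offs. The calls and intervals were run on simulated Poisson counts per library. These leave out the uneven spread over cells, so they check the computation only.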

Additional observations from a re-analysis of the deposited data

How the results depend on the processing

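NPY and VIP stayed at least 2-fold higher and CARTPT at least 2-fold lower under each alternative run, with ratios of induced over control of 2.91 to 4.56, 2.72 to 5.65 and 0.00879 to 0.113. GAL (1.51 to 1.79), NMB (0.524 to 0.740) and ADCYAP1 (0.754 to 1.30) stayed within 2-fold, and CRH moved between 1.03 and 4.79. These runs did not take S cells or the shared clusters alone, where GAL passed 2-fold (2.04 and 2.54). CRHBP was no longer called with a floor of 10 CPM or without the cluster highest in endothelial markers, and was at 0 in both libraries without the 5% of cells richest in it. The members called numbered 3 to 4 higher, or 2 with the 10 CPM floor, and 1 lower. Genes of the 5 lists numbered 11 higher and 0 lower; 7 were higher with a pseudocount of 1 CPM, 3 with the 10 CPM floor and 20 with no floor, and the lower ones were 1 with totals without ribosomal protein and mitochondrially encoded genes, per-cell means, either depth filter, the quality limit or without that cluster, 2 after thinning, 4 in G1 cells and 3 with no floor. Over all genes (977 higher, 466 lower), 643 were higher with the pseudocount, 398 with the 10 CPM floor and 3538 with no floor. The lower ones were 298 with TMM, 244 with DESeq2, 857 with the reduced totals, 224 with the quality limit, 1316 in G1 cells, 171 with the pseudocount, 146 with the 10 CPM floor and 3473 with no floor. TMM and DESeq2 scaling moved the median log2 ratio of all genes by 0.11 and 0.16, the quality limit by 0.15. The share of cells with at least 2 members was 99.8% in induced and 99.6% in control cells with carriers at 1 count, 76.5% and 45.7% at 10 counts, 86.2% and 77.4% when thinned to 30000 counts, and 94.6% and 94.8% unthinned. With at least 4 members it was 83.8% and 71.8% at 1 count, 9.79% and 5.35% at 10 counts, 26.0% and 16.0% at 30000 counts, 60.1% and 44.9% unthinned, and 42.4% in control G1 cells; the induced share was the higher in each of these pairs. Thinning, leaving out the endothelial-high cluster and leaving out the cells richest in a member were chosen after seeing the data. No paired analysis was possible because each group has 1 library. Carrier shares depend on depth: a cell at 53000 counts with a level of 10 CPM is expected to hold under 1 count.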

Other observations

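Cells without NPY or GAL differed from the rest in other genes, given as values and not tested. The 40 induced cells without NPY had DLK1, a Notch ligand of chromaffin cells, at 1152 CPM, against 418 CPM in induced NPY carriers, and VIM at 842 against 1617 CPM. The 43 induced cells without GAL had VIM at 3813 CPM and NPY at 2243 CPM, against 1376 and 1270 CPM in induced GAL carriers. In control cells the 42 without GAL had VIM at 905 CPM and CRH at 858 CPM, against 164 and 187 CPM in GAL carriers, and 52.4% of them were scored G1, against 18.8%.

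The 35 control CARTPT carriers had DLK1 at 3840 CPM and chromogranin A (CHGA) at 315 CPM, against 1282 and 1059 CPM in the other control cells. Their median depth was 83438 against 107092 counts.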
